A study of Mus musculus with 51 samples.

Results

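The cytosolic ribosomal protein genes are the genes of the mouse whose products, together with ribosomal RNA, make up the 40S and 60S subunits of the ribosome. They were taken by symbol: every listed gene whose symbol is Rpl or Rps followed by a digit, starts with Rplp, or is Rpsa, without the Rps6k kinases and Rps19bp1. This gave 81 of the 6248 genes listed, and 81 of 81 matched a protein-coding RefSeq symbol. By symbol 40 encode proteins of the large subunit, 31 proteins of the small subunit and 3 the P stalk (Rplp0, Rplp1 and Rplp2). The remaining 7 are paralogs: Rpl22l1, Rpl32l, Rpl36al, Rpl39l, Rpl3l, Rpl7l1 and Rps27l.

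The data came from GeoMx, a spatial assay that hybridises barcoded probes to RNA in a tissue section, cuts the barcodes off with light inside drawn outlines and counts them by sequencing. Sections of fresh-frozen cochlea, 6 µm thick, came from male CBA/CaJ mice, an inbred strain used in hearing research, at 16 weeks of age. The exposed animals had 2 h of broadband noise at 100 dB SPL, and the controls a mock exposure without noise. Collection followed at once by the design text, but the titles give 2 h and a further 4 h. Regions were captured as neurons or as supporting cells, which gave 16 mock neuron, 12 noise neuron, 14 mock supporting-cell and 8 noise supporting-cell regions. A further noise neuron region, replicate 6, held the same value for every gene and was left out. The table header lists for noise supporting replicate 8 read files of its own well and 1 of another well; it was used as titled, and without it the noise comparison in supporting cells had 0 members called and a median log2 fold change of -0.34, and the noise comparison of neurons with supporting cells 4 called. The labels name no transgene and no drug for any group.

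Each treatment had 5 animals, and which region came from which animal is not recorded. All groups hold over 5 regions, so some regions share an animal, and every p-value below is over regions and too small. A total of 22 captured areas held both a neuron and a supporting-cell region, with the region left out counted, and 0 areas held both treatments. Among the regions used, 14 mock and 7 noise areas held both region types. With captured area as a random block, 0 members were called after noise in either region type, as without it. The regions were shallow, with 9607 to 88156 recovered reads over all genes. These totals count at least 1 read for every gene, and in the region with 9607 reads 70.3% of genes were at that floor. The neuron labels matched their markers: the summed signal of the 9 listed neuron genes was 151 to 363 in mock neurons and 41.6 to 104 in mock supporting cells. Of the supporting-cell markers of the organ of Corti only 3 of 11 were listed, with a median of 1 read for Sox2 in mock and noise supporting cells, while the 11 listed glia genes summed to 110 to 193 in mock supporting cells and 30.1 to 59.3 in mock neurons. The supporting-cell label is therefore used as given, with glial genes as its leading markers.

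Ribosomal proteins are needed in nearly equal numbers, and their mRNAs are among the most abundant of any cell. Most of these mRNAs begin with a 5′ terminal oligopyrimidine tract (TOP), a C followed by a run of C and T, through which mTOR signalling controls their translation as a group. Several ribosomal proteins also have roles outside the ribosome: free Rpl5 and Rpl11 bind the ubiquitin ligase Mdm2 and so stabilise p53. Rps6 is a substrate of the S6 kinases, and its phosphorylated protein, not its mRNA, is widely used as a sign of neuronal activity. Spiral ganglion neurons, the cells that carry sound information from the hair cells to the brainstem, lie among the glial cells that myelinate them.

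The annotated start sites of the members were searched for a run of this kind, and windows are given here for members on which the results below turn. A TOP tract begins at the first base of the mRNA, and a run elsewhere in the window is not shown to be one. The RefSeq promoter table for GRCm38.p6 held an entry for 63 of the 81 genes. A run of 5 or more pyrimidines beginning with C lay within the 30 bases from 10 before to 20 after an annotated start in 42 of these 63 genes (66.7%), against 39.6% of all genes in that table. The windows are printed 5′ to 3′ on the coding strand, with the first such run in capitals. They were read from chr2:26910797-26910826 on the plus strand for Rpl7a, chr2:39005112-39005141 on the minus strand for Rpl35, chr7:4792955-4792984 on the plus strand for Rpl28, chr10:128626487-128626516 on the minus strand for Rps26, chr4:86857348-86857377 on the minus strand for Rps6, chr7:3704031-3704060 on the plus strand for Rps9, chr3:86142649-86142678 on the minus strand for Rps3a1 and chr15:5116603-5116632 on the plus strand for Rpl37.
Rpl7a: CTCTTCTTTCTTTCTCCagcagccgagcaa
Rpl35: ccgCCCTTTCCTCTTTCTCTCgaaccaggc
Rpl28: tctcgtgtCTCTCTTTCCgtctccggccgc
Rps26: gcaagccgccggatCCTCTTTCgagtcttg
Rps6: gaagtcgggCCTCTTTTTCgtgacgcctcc
Rps9: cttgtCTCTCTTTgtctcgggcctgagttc
Rps3a1: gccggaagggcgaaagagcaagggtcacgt
Rpl37: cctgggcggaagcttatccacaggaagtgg
The run was 17 bases long in Rpl7a, 18 in Rpl35, 10 in Rpl28 and Rps6, and 8 in Rps26 and Rps9. Rps3a1 and Rpl37 had no such run in this window, which says only that these letters are not at the annotated start.

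Upstream, the members shared 2 other short motifs more often than genes at large. CCGGAAG, letters bound by the ETS family of transcription factors, was found on either strand within 250 bases before and 50 after an annotated start in 39.7% of the 63 genes and in 9.93% of all genes in the table. AAGATGG, the core of the site of the factor YY1, was found in 15.9% and 7.28%, and the TATAAA box in 11.1% and 15.7%. The promoters of Rps25 and Rps27, among the members with the largest differences after noise, show the first and the second motif in capitals, from 250 bases before to 20 after the start, at chr9:44407464-44407733 on the plus strand and chr3:90213629-90213898 on the minus strand.
Rps25: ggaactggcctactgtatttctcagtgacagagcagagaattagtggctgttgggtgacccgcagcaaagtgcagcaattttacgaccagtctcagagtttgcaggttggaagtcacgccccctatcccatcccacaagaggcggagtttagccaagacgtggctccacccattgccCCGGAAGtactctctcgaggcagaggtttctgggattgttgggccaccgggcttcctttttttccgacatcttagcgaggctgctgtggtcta
Rps27: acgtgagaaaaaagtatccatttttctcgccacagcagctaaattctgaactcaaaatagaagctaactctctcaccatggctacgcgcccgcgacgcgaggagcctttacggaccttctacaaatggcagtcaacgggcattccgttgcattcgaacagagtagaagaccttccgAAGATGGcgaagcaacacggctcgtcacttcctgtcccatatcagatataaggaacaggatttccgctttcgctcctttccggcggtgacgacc

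The values are a scaled signal per gene and region. Its upper quartile over genes is 3.12 in every region, and the lowest value in a region is what 1 read is worth there. Signals of different probes are not on a common scale, so levels are compared between groups and not between genes. The brightness of a probe is used below only to choose genes above a lower bound of signal, and says nothing of how abundant an mRNA is. The mean signal of the 80 members that passed the filter on low values had a median of 6.55. That of all 4686 genes tested had one of 2.30. Rpl7l1, the paralog of Rpl7, was below the filter and was not tested. In reads, the member in the middle of the list had a median of 9 under mock and 9.5 after noise in neurons, and of 5 under mock and 6 after noise in supporting cells, so the value of a single member in a single region rests on few reads.

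Taken as a group, the members made up less of the reads in supporting cells after noise. They held 3.32% to 4.36% of all recovered reads in mock supporting-cell regions (median 3.62%) and 2.45% to 3.52% in noise supporting-cell regions (median 3.06%). Of the 8 noise regions 6 lay below the lowest of the 14 mock regions, and 8 of 8 lay below the mock median. In neurons the shares overlapped more widely, with 3.02% to 3.78% in mock regions (median 3.49%) and 2.52% to 4.06% in noise regions (median 3.37%), and 3 of the 12 noise regions lay below the lowest mock region.

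Both subunits showed the same order in supporting cells. The large-subunit genes by symbol held a median of 1.97% of reads under mock and 1.66% after noise, and the small-subunit genes a median of 1.66% under mock and 1.36% after noise. Every region has a floor of 1 read per gene, and the floor takes a larger share of shallow regions: in supporting cells a median of 51.6% of all genes were at the floor under mock and 35.4% after noise. Counting only reads above the floor, the members' median share in supporting cells was 6.04% under mock and 3.94% after noise, with 7 of 8 noise regions below the lowest mock region. In neurons it was 4.35% under mock and 3.88% after noise. Depth therefore moved with the treatment, and its part in these shares was not tested. In regions of mixed tissue, fewer cells of a type and less RNA per cell cannot be told apart.

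**Figure D1:**
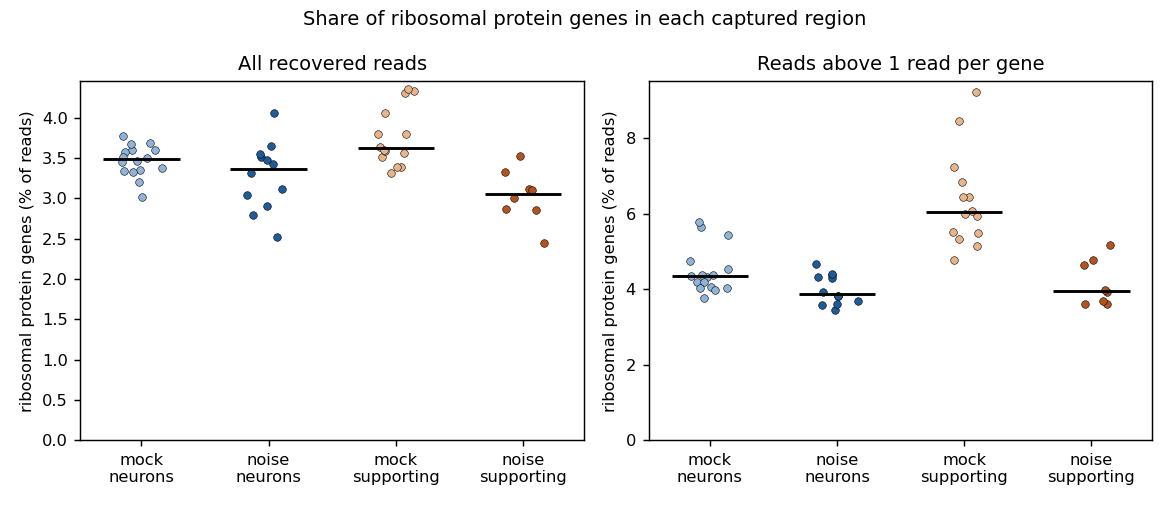
Share of the 81 ribosomal protein genes in each captured region, as percent of all recovered reads (left) and of reads above the floor of 1 read per gene (right). Each point is a region (16 mock neuron, 12 noise neuron, 14 mock supporting, 8 noise supporting) and the bar is the group median. After noise 6 of 8 supporting-cell regions (left) and 7 of 8 (right) sit below the lowest mock supporting-cell region.

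The first comparison asked what noise changed in supporting cells. No member passed: 0 of the 80 members tested were called at an adjusted p below 0.05 (limma over all 4686 genes), where 0.363% of all genes were called. The members nonetheless leaned one way. Their median log2 fold change was -0.32, against -0.03 over all genes, and 66 of 80 members had a negative value, against 54.2% of all genes. At an unadjusted p below 0.05, 24 members were lower and 1 was higher, against 6.23% of all genes lower and 3.88% higher. The 309 other genes whose mean signal was at or above the members' lower quartile of 4.67 had a median of -0.10. This set has no upper bound of signal, and 210 of the 309 were called higher in mock neurons than in mock supporting cells. The counts of members describe the list and are no test of it, since the genes share regions.

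Among large-subunit genes the lowest value belonged to Rpl19, a protein that takes part in a bridge to the small subunit. Its signal had a lowest value of 3.12, a median of 10.4 and a highest value of 15.6 in mock supporting cells, and 3.12, 4.68 and 7.28 in noise supporting cells. All 8 noise regions lay below the mock median, though the ranges overlapped. The log2 fold change was -0.85 (adjusted p 0.104, SE 0.25). The call was made with edgeR (-1.08, adjusted p 0.0274) and DESeq2 (adjusted p 0.0186) on recovered reads, and when mock supporting replicate 2 was left out (-0.95, adjusted p 0.0364). It was also made with a pseudocount of 10 (adjusted p 0.037) and with each region shifted to the same median (0.00691). The rest of the 16 other settings made no call, nor did leaving out any other region. Rpl22, which binds RNA and has the paralog Rpl22l1, went from a median of 6.76 (2.08 to 10.9) to 3.74 (1.04 to 6.24), a log2 fold change of -0.63 (adjusted p 0.313, SE 0.25). Rpl22l1 itself had a log2 fold change of 0.18 (adjusted p 0.841, SE 0.23).

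Small-subunit genes held the next lowest values. Rps27, a zinc-finger protein of the 40S subunit, had a median signal of 7.80 (4.68 to 10.4) under mock and 4.03 (1.04 to 8.58) after noise, with 7 of 8 noise regions below the mock median. Its log2 fold change was -0.73 (adjusted p 0.174, SE 0.25). Rps9, which lies near the mRNA entry channel, had a median of 6.76 (3.12 to 9.36) under mock and 3.12 (2.34 to 5.61) after noise, and 8 of 8 noise regions lay below the mock median. Its log2 fold change was -0.71 (adjusted p 0.2, SE 0.25). Rps3, which also sits at the entry channel and takes part in DNA repair, had a median of 11.4 (4.68 to 21.8) under mock and 6.24 (3.12 to 10.9) after noise, a log2 fold change of -0.67 (adjusted p 0.235, SE 0.25). Of these 3 genes none passed the threshold.

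The genes of the P stalk, which recruits the elongation factors, had values of both signs, none of which passed. Rplp1 had a median of 10.5 (7.28 to 21.8) under mock and 6.63 (4.16 to 10.4) after noise, a log2 fold change of -0.67 (adjusted p 0.23, SE 0.24) with all 8 noise regions below the mock median. Rplp0, the scaffold of the stalk, had a log2 fold change of -0.45 (adjusted p 0.554, SE 0.25). Rplp2, the partner of Rplp1, had a positive one of 0.20 (adjusted p 0.83, SE 0.25), with 7 of 8 noise regions above the mock median. No difference between these 3 genes was tested.

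A further 5 members known for roles outside the ribosome were picked by role, and Rps3 (above) is not among them. The log2 fold change in supporting cells was -0.24 for Rpl5 and -0.38 for Rpl11, -0.31 for Rps6, and -0.43 both for Rps27a, which is made as a fusion with ubiquitin, and for Rpsa, also known as a laminin receptor. The adjusted p of these 5 genes ran from 0.542 to 0.787. The 18 members mutated in Diamond-Blackfan anaemia, an inherited failure of red cell production, had a median of -0.31, close to that of all members.

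A few members went the other way. The highest value was that of Rps18, with a median signal of 5.20 (1.56 to 9.36) under mock and 7.15 (4.16 to 11.7) after noise and a log2 fold change of 0.51 (adjusted p 0.451, SE 0.25). Rpl35 (0.29) and Rpl6 (0.22) followed, with adjusted p of 0.755 and 0.8. The 6 paralogs tested had a median of 0.07, with 1 of 6 negative, where the 40 large-subunit genes had a median of -0.32 and the 31 small-subunit genes one of -0.33. None of these groups was tested against another. The mean signals of Rpl22l1, Rpl39l, Rpl3l and Rps27l ran from 2.03 to 4.67 in the 4 groups. Fold changes of such low genes come out too small on the scale used. The 465 olfactory receptor genes tested, used below as a sign of background, had a median of 0.10 in supporting cells. The part of background in the paralogs' values was not tested.

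**Figure D2:**
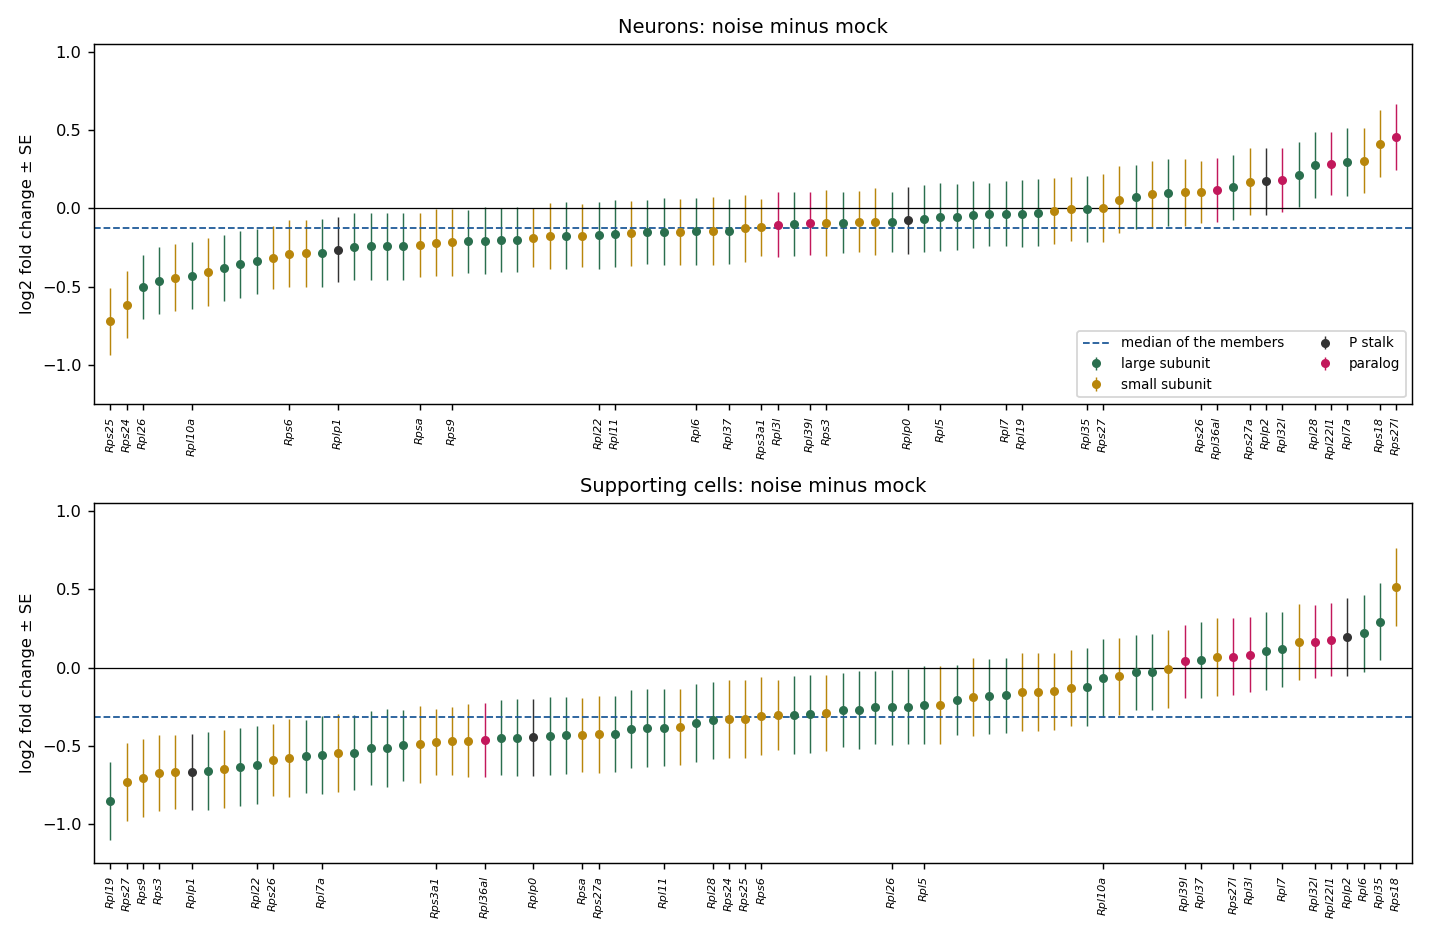
Log2 fold change of noise against mock for each of the 80 members tested, in neurons (top) and supporting cells (bottom), in order of the value; bars are ± SE from limma, colours mark subunit, and members named in the text are labelled. In supporting cells 66 of 80 values are negative around a median of -0.32, in neurons 61 of 80 around a median of -0.12, and no member passed an adjusted p of 0.05.

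Glial genes moved with the ribosomal protein genes in supporting cells. Of 10 glia markers tested 4 fell after noise, and the median log2 fold change of the 10 was -0.72. In supporting cells the 11 listed glia genes summed to 110 to 193 under mock and to 50.9 to 90.4 after noise, and these ranges did not overlap. Whether the regions held fewer glial cells or less glial RNA per cell cannot be told apart, and the part of this fall in the members' values was not tested.

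In neurons the members' lean after noise was small. Again 0 of 80 members were called, where 0.662% of all genes were. The median log2 fold change was -0.12, against 0.02 over all genes, and 61 of 80 members were negative, against 46.3% of all genes. At an unadjusted p below 0.05, 6 members were lower and 1 was higher, against 6.51% and 6.98% of all genes. The same 309 bright genes had a median of -0.27. The mean log2 signal of the olfactory receptor genes, used as a sign of background, was 1.21 to 1.59 in mock neurons and 1.46 to 1.79 in noise neurons. With it as a covariate the members' median relative to all genes was -0.28 in supporting cells, against -0.29 without it. In neurons it was -0.02, against -0.15 without it. There the members' own median was -0.09 with the covariate, with 53 of 80 negative, and the median of all genes moved from 0.02 to -0.08. The covariate was itself higher after noise, and the part of background in the members' values was not tested. Marker genes had negative values in the same regions: the 9 neuron markers had a median log2 fold change of -0.42, with 9 of 9 negative and 1 called, and the 10 glia markers tested one of -0.31, with 9 of 10 negative and 1 called. The summed signal of the neuron markers had a median of 226 (151 to 363) under mock and 177 (96.7 to 222) after noise. The part of these markers in the members' values was not tested.

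The small-subunit genes Rps25 and Rps24 stood lowest in neurons. Rps25, which viral and some cellular mRNAs need to start translation at an internal ribosome entry site, had signals of 5.46 to 15.6 (median 9.67) in mock neurons and 3.12 to 8.32 (median 5.33) in noise neurons. All 12 noise regions lay below the mock median, and the ranges overlapped. The log2 fold change was -0.72 (adjusted p 0.0842, SE 0.21). The call was made with edgeR (-0.75, adjusted p 0.00282) and DESeq2 (adjusted p 0.00343) on recovered reads, and when each region was shifted to the same median (-0.86, adjusted p 0.00986). It was also made with TMM scaling (adjusted p 0.0252), a pseudocount of 10 (0.0279) and only the groups compared (0.0301). The rest of the 16 other settings made no call, nor did leaving out any region. Rps24 had signals of 4.68 to 11.4 (median 8.06) in mock neurons and 1.04 to 6.76 (median 5.20) in noise neurons, again with all 12 noise regions below the mock median. Its log2 fold change was -0.62 (adjusted p 0.151, SE 0.21). The call was made with edgeR (-0.69, adjusted p 0.00999), DESeq2 (adjusted p 0.0111) and the shift to the same median (0.0305), and in none of the rest of the 16 other settings. Rpl26, whose protein binds p53 mRNA, followed at -0.50 (adjusted p 0.247, SE 0.21), with 10 of 12 noise regions below the mock median.

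The highest value in neurons was that of Rps27l, the paralog of Rps27 and a target of p53. Its signal ran from 0.780 to 7.02 (median 2.60) in mock neurons and from 2.67 to 8.32 (median 4.05) in noise neurons, and 12 of 12 noise regions lay above the mock median. The log2 fold change was 0.45 (adjusted p 0.312, SE 0.21) and did not pass. Rps27 itself had 0.00 (adjusted p 0.998, SE 0.21). Rps18 (0.41, adjusted p 0.377) came next, and was thus the highest or next to highest member in both region types. Rpl5, Rpl11, Rps6, Rps27a and Rpsa had -0.05, -0.16, -0.29, 0.17 and -0.23, with adjusted p from 0.566 to 0.942.

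The difference between the noise effects in neurons and in supporting cells was tested directly. No member passed, and no gene of the 4686 did (0%); at an unadjusted p below 0.05 there were 5 members, each with the more negative value in supporting cells, and 5.61% of all genes. edgeR and DESeq2 on recovered reads also called 0 genes. The members' median difference, neurons minus supporting cells, was 0.21, against 0.05 over all genes, and 60 of 80 were positive, against 55.5% of all genes. The largest differences were those of Rpl7a (0.85, adjusted p 0.601, SE 0.33), Rpl19 (0.82, adjusted p 0.601, SE 0.33) and Rps27 (0.74, adjusted p 0.743, SE 0.33). The lowest were those of Rps25 (-0.39), Rpl10a (-0.37) and Rpl6 (-0.36), none below an adjusted p of 0.909. A stronger lean in supporting cells than in neurons was therefore not shown for any member.

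Neurons and supporting cells of mock animals were compared next. Few ribosomal protein genes separated these regions. Of 80 members 3 passed, where 19.1% of all genes did, and their median log2 fold change was -0.01, with 41 of 80 negative, against a median of -0.05 and 55.1% negative over all genes. The other bright genes had a median of 0.93, and 228 of 309 of them passed. Within areas that held both region types, the members' mean log2 signal was higher in the neuron region in 10 of 14 mock areas, by a median of 0.06, and that of the other genes tested was higher in 12 of 14, by a median of 0.04. The members' share of reads was higher in the neuron region in 3 of these 14 areas, with a median difference of -0.20 percentage points.

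Rpl37 and Rpl6, both of the large subunit, were higher in neurons (13.4% of all genes were), and Rplp0 was higher in supporting cells (5.63% of all genes). Rpl37 had signals of 8.32 to 21.8 (median 11.6) in mock neurons and 3.12 to 11.4 (median 7.80) in mock supporting cells, and 16 of 16 neuron regions lay above the supporting-cell median. The log2 fold change was 0.65 (adjusted p 0.00947, SE 0.20), and the call ended in 2 of 16 other settings, with DESeq2 (0.42, adjusted p 0.145) and in the regions whose upper quartile was 3 or more reads (0.26, adjusted p 0.488). Rpl6 had 3.12 to 16.4 (median 9.10) in neurons and 1.04 to 10.4 (median 6.76) in supporting cells, with 3 supporting-cell regions at the floor of 1 read. Its log2 fold change was 0.61 (adjusted p 0.0195, SE 0.20), and the call ended without mock supporting replicate 1 (0.51, adjusted p 0.0649), replicate 4 (0.51, adjusted p 0.0673) or replicate 14 (0.49, adjusted p 0.0862). It also ended in 7 of the 16 other settings, edgeR (adjusted p 0.0617) and DESeq2 (0.221) among them, at most at an adjusted p of 0.305. Rplp0 had 3.12 to 10.9 (median 6.46) in neurons and 4.16 to 14.0 (median 10.7) in supporting cells, with 15 of 16 neuron regions below the supporting-cell median. Its log2 fold change was -0.54 (adjusted p 0.0456, SE 0.20), and leaving out 1 of 17 single regions, or 7 of the 16 other settings, ended the call. The glia markers differed by a median of -1.18 in this comparison, and the makeup of the regions, which the comparison is about, was not separated from levels per cell.

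After noise the members were more often higher in neurons than in supporting cells. Of 80 members 5 passed, where 7.94% of all genes did, and 62 of 80 had a positive value, against 55.4% of all genes. Their median was 0.20, against 0.05 over all genes and 0.79 over the other bright genes. This comparison uses the same noise regions as the noise comparisons above and gives no separate support to them. Within areas, the members' mean log2 signal was higher in the neuron region in 6 of 7 noise areas, by a median of 0.24 (-0.04 to 0.64), and that of the other genes tested in 5 of 7, by a median of 0.12. The members' share of reads was higher there in 5 of 7, with a median difference of 0.18 percentage points.

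Of the 5 members, 4 were higher in neurons (6.76% of all genes) and 1 was lower (1.17%). Rpl7a, an RNA-binding protein of the large subunit, had signals of 5.20 to 10.9 (median 8.62) in noise neurons and 2.08 to 9.36 (median 3.12) in noise supporting cells. Each of the 12 neuron regions exceeded the supporting-cell median, and a single supporting-cell region, replicate 4 at 9.36, lay within the neuron range. The log2 fold change was 0.97 (adjusted p 0.00408, SE 0.26), and the call held in all 16 other settings and with each region left out. Under mock the same difference was 0.12 (adjusted p 0.732, SE 0.21), and the change in it between treatments did not pass (above).

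Rps26, which lies at the mRNA exit of the small subunit, had 9.36 to 23.4 (median 15.3) in noise neurons and 4.16 to 14.8 (median 9.75) in noise supporting cells, a log2 fold change of 0.86 (adjusted p 0.00635, SE 0.24) with 11 of 12 neuron regions above the supporting-cell median. Rps3a1, a small-subunit protein, had 12.5 to 31.2 (median 21.8) and 7.80 to 17.7 (median 12.4), a log2 fold change of 0.77 (adjusted p 0.00925, SE 0.22) with 12 of 12 above. Rps26 and Rps3a1 kept the call with each region left out and lost it when noise neuron replicate 6, with its equal values, was kept in the fit (adjusted p 0.0914 and 0.215). Rps3a1 was also the member with the least spread, with a within-group SD of 0.33 on the log2 scale, against a median of 0.53 over the members and 0.51 over all genes tested. Rps6 had the widest, at 0.71.

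Rpl28 and Rpl35 passed narrowly. Rpl28 had 8.32 to 15.1 (median 10.5) in noise neurons and 1.56 to 9.36 (median 6.76) in noise supporting cells, a log2 fold change of 0.73 (adjusted p 0.0498, SE 0.25). Each of the 12 neuron regions exceeded the supporting-cell median, yet leaving out 1 of 27 single regions ended the call, with an adjusted p of up to 0.284 (without noise supporting replicate 1). So did 9 of the 16 other settings, edgeR (adjusted p 0.0611) and DESeq2 (0.12) among them, at most at an adjusted p of 0.163. Rpl35 was the member higher in supporting cells, with 0.780 to 4.85 (median 3.16) in noise neurons and 3.12 to 10.9 (median 4.76) in noise supporting cells. Its log2 fold change was -0.74 (adjusted p 0.0414, SE 0.25), with 11 of 12 neuron regions below the supporting-cell median. The call ended without any 1 of 10 regions, at most at an adjusted p of 0.154 (without noise supporting replicate 2), and in 6 of the 16 other settings, edgeR (adjusted p 0.101) among them, at most at 0.218 with the replicate block. Under mock Rpl35 had -0.44 (adjusted p 0.105, SE 0.20), in the same direction. The count of 5 was 3 without noise neuron replicate 3, 5 or 11.

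**Figure D3:**
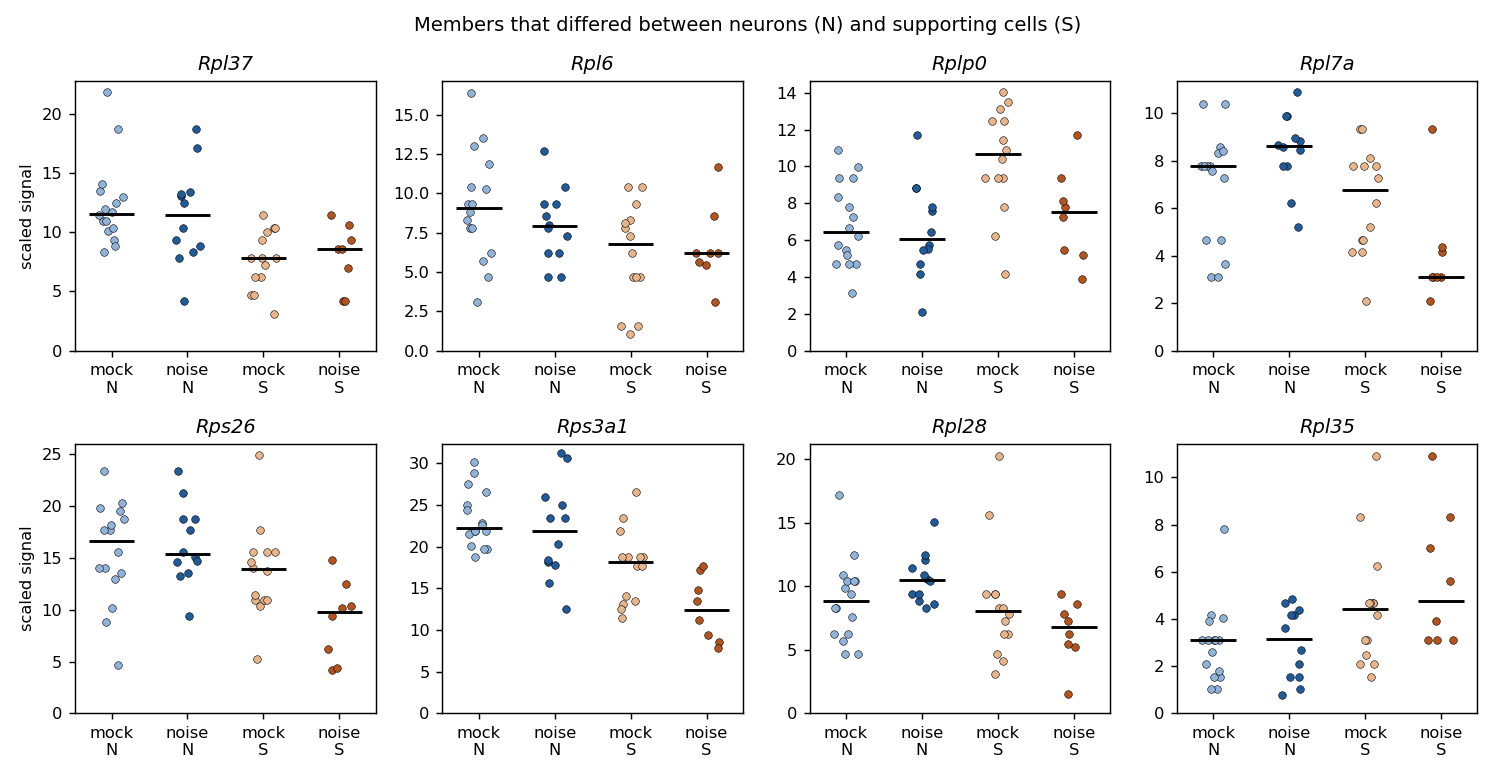
Scaled signal of the 8 members that passed in a comparison of neurons (N) with supporting cells (S), in every region; each point is a region and the bar is the group median. Rpl37, Rpl6 and Rplp0 passed between mock regions, and Rpl7a, Rps26, Rps3a1, Rpl28 and Rpl35 between noise regions.

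Members with and without a pyrimidine run near the annotated start can be set side by side. After noise the median log2 fold change in supporting cells was -0.26 over the 42 tested members with a run and -0.43 over the 20 without. In neurons it was -0.07 with and -0.18 without, and 26 of 42 members with a run and 20 of 20 without were negative. Rps25 and Rps3 belong to those without a run, and Rps9 and Rps24 to those with one. No test was made of this split.

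Within groups, the median pairwise correlation of their deviations from the group mean was 0.11 over 50 regions, against 0.02 over all genes tested. All pairs share the same libraries and their depth, and a value this low in sparse counts is no finding.

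Other genes of translation give the setting. Of the ribosomal proteins whose symbols the rule leaves out, Fau, made as a fusion with a ubiquitin-like protein, had a log2 fold change of -0.83 (adjusted p 0.104, SE 0.24) in supporting cells after noise. It went from 11.6 ± 3.07 (SD, n = 14) to 6.40 ± 2.46 (SD, n = 8). Rack1, a scaffold on the small subunit, had -0.10. The 14 elongation factors and other TOP genes had a median of -0.27 in supporting cells and -0.16 in neurons after noise. One of them, Naca, a chaperone at the ribosomal exit, fell in supporting cells, from 6.53 ± 3.49 to 3.17 ± 2.91 (log2 fold change -0.95, adjusted p 0.0391, SE 0.25). Eef2, the translocation factor, and Tpt1 had -0.52 (adjusted p 0.191) and -0.54 (adjusted p 0.248) there.

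The 13 initiation factors tested had medians of -0.38 in supporting cells and -0.32 in neurons, with 12 of 13 negative in each, and 1 of them passed. Eif1, which guards the choice of start codon, fell in supporting cells from 12.4 ± 2.67 to 6.65 ± 3.61 (log2 fold change -0.93, adjusted p 0.0391, SE 0.24). The calls of Naca and Eif1 ended in 8 and 9 of 16 other settings, and with any 1 of 13 and 12 regions left out. Genes that build or resemble cytosolic ribosomes without being part of them lay near the median of all genes in supporting cells: 0.03 over 24 ribosome biogenesis genes and 0.04 over 28 mitochondrial ribosomal proteins, with 0 of either list called. The 37 proteasome subunits had 0.09 and the 78 nuclear-encoded respiratory chain genes -0.14. These lists were not matched to the members in signal. Only 24 of 34 ribosome biogenesis genes and 28 of 39 mitochondrial ribosomal proteins passed the filter on low values, as did 13 of 19 initiation factors, against 80 of 81 members. Fold changes of low genes come out too small on the scale used.

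Some translation factors were also called between neurons and supporting cells. Under mock 5 of 13 initiation factors and 3 of 14 genes of the elongation list were higher in neurons, beside 2 of 80 members and 13.4% of all genes. Of the other bright genes 210 of 309 were higher there. Eif4a2, an RNA helicase abundant in brain, led with a log2 fold change of 1.52 (adjusted p 5e-13, SE 0.19). Eef1g, a subunit of the elongation factor 1 complex, followed at 1.23 (adjusted p 2.94e-08, SE 0.20) and Eef2 at 0.90 (adjusted p 3.48e-08, SE 0.15). Whether these shares differ was not tested.

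**Figure D4:**
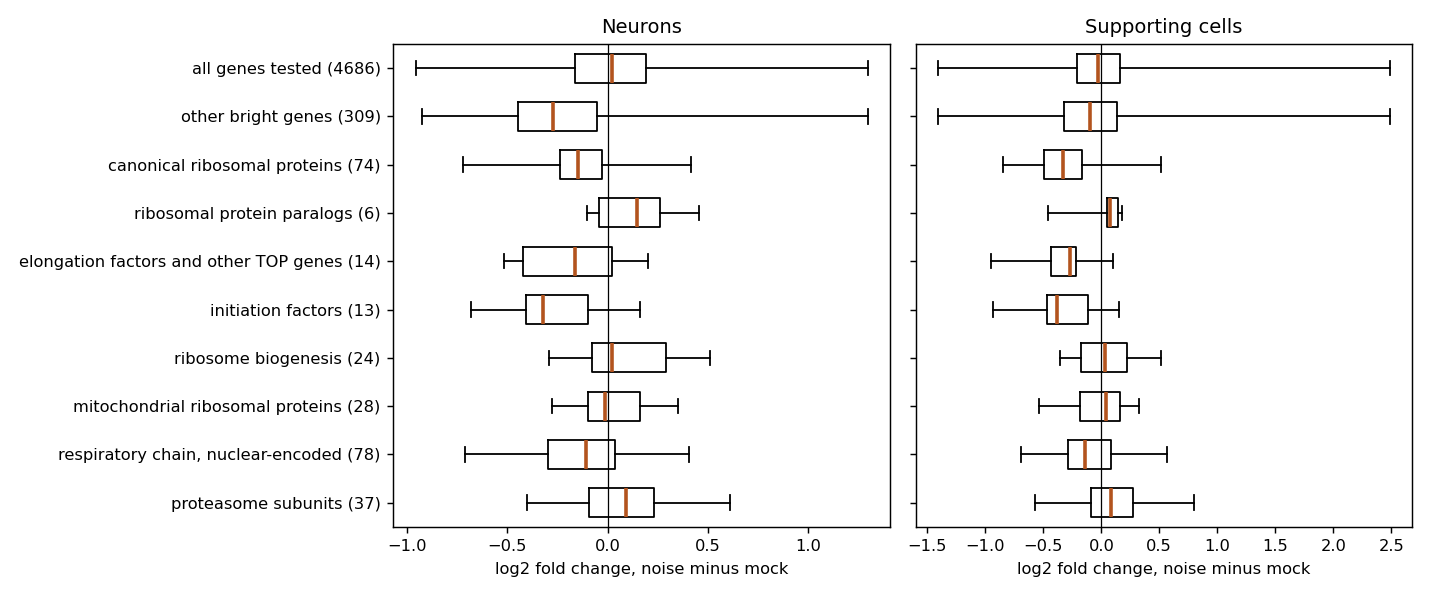
Log2 fold change of noise against mock over gene lists, in neurons (left) and supporting cells (right); the box spans the quartiles, the orange line is the median, the whiskers reach the lowest and highest gene, and the number tested is in brackets. In supporting cells the canonical ribosomal proteins, the elongation list and the initiation factors have medians of -0.33, -0.27 and -0.38, while ribosome biogenesis genes and mitochondrial ribosomal proteins have medians of 0.03 and 0.04. The lists are not matched for signal.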

How the data were processed

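GeoMx signal values were deposited by the authors, 1 file per region and 1 table of the series with the same values. The signal had been scaled to a common upper quartile by the authors, as the deposited values show. The submitters' processing notes name DRAGEN and the builds mm10 and GRCm38, and how they were used is not given in the sources used here. Of the signal values 99.99% were whole multiples of the region's lowest value within 0.01 of a read, so whole reads were recovered, with a floor of 1. How counts of 0 were treated before scaling is not stated. A total of 66 entries without a number, none in a member, were treated as missing.

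Signal was tested as log2(value + 1) with limma 3.58.1 (lmFit, then eBayes with a trend) in R 4.3.3, with a mean for each of the 4 groups over 50 regions. On this scale fold changes of low genes come out too small. The filter kept the 4686 of 6248 genes whose mean signal reached the 0.25 quantile (1.85). In each of 5 comparisons Benjamini-Hochberg adjustment ran over all of them, with calls below 0.05. The design had been written for scaled signal. edgeR 4.0.16 and DESeq2 1.42.0 ran on recovered reads as alternatives, with other pseudocounts, filters, scalings, background corrections, blocks and left-out regions. Python 3.11.15 summarised results.

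The listed genes were uneven over the alphabet: 3238 genes besides the members had symbols from N to Slc26, so lists outside it are partial (34 of 84 ribosome biogenesis genes, 11 of 12 glia markers). The members and lists were chosen with earlier results of these data known. Members named are those called where 12 or fewer were, the 3 highest and 3 lowest values of each comparison, and 12 members with known roles. Other genes named are 7 fixed translation genes and those called on the translation lists. Eef1a1 was not analysed here, and some genes the rule gives are not reported here. In data simulated for the noise comparison of neurons (4636 genes), a 1.5-fold change was recovered in 6.9% of changed genes. A 2-fold change was recovered in 42.9% and a 3-fold change in 97.9%. For supporting cells these were 1.72%, 18.4% and 85.4%. The changed genes were drawn at random from all genes above a lower bound, not from the members, whose signal is higher. The simulated regions were independent and had a common dispersion, unlike regions that share an animal. Changes of 1.5-fold in such genes would mostly be missed, and the recovery of a member was not simulated. The lack of calls after noise does not show that members were unchanged. No label says regions are separate animals, so p-values measure the spread between regions. Counting error from recovered reads covers counting only.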

Additional observations from a re-analysis of the deposited data

Results flagged for a closer look

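Of 53 quantities examined in the 8 noise supporting-cell regions (the members' share and mean signal, and each gene the naming rule gave), 4 had a single region whose gap to the others was large against the group's range; by chance about 1 in 20 groups shows such a gap. Rpl26 was at 19.8 in replicate 3 (19 reads), where the other 7 regions ran from 5.20 to 9.36. Rps25 was at 12.5 in replicate 2 (8 reads), with the others from 3.12 to 6.24. Rpl7a was at 9.36 in replicate 4 (12 reads), with the others from 2.08 to 4.37. Rpl39l was at 1.04 in replicate 7, the worth of 1 read, with the others from 3.12 to 4.99. The 4 regions are different replicates, and groups of more than 10 regions were not examined this way.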

How the results depend on the processing

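The members' median after noise was negative in supporting cells in all 16 other settings (-0.49 to -0.14) and with each region left out (-0.36 to -0.27), and in neurons too (-0.26 to -0.05, and -0.16 to -0.05). Relative to the median of all genes it lay between -0.44 and -0.13 in supporting cells and between -0.23 and -0.02 in neurons. Shifting each region to the same median moved the median of all genes to -0.11 in neurons and -0.20 in supporting cells, and then 2 and 10 members were called lower. In neurons, where the count is 0, it was 1 lower with a pseudocount of 10, with only the groups compared and with TMM scaling, and 2 lower with edgeR and with DESeq2. In supporting cells 1 member was lower with a pseudocount of 10 (median -0.14), edgeR and DESeq2, and the count ran from 0 to 1 with regions left out. Between mock neurons and supporting cells the count of 3 was 5 (1 higher, 4 lower in neurons) after scaling to the same total or shifting to the same median, 1 in regions with an upper quartile of 3 or more reads, and 2 to 4 with regions left out. The median of -0.01 was 0.13 with the negative probe subtracted and -0.18 with DESeq2. Between noise neurons and supporting cells the count of 5 was 3 without a filter, 3 with mean olfactory receptor signal as a covariate, 2 (1 higher, 1 lower) with noise neuron replicate 6 kept, and 3 to 7 with regions left out; that median ran from 0.00 to 0.33. Same-numbered regions had correlations of -0.11 to 0.06. Regions of the same captured area had a consensus correlation of only 0.04, so such values cannot show whether the numbers pair regions. With the replicate block the counts were 0, 0, 1, 5 and 0 members. Among the genes the naming rule gave, 93 calls were lost and 50 gained over the 16 other settings, and none reversed. Of these settings 1 kept only the 38 regions with an upper quartile of 3 or more reads. Calls on genes not named are not in these counts. edgeR called 183, 8, 679 and 327 of all genes in the noise (neurons, supporting cells) and region-type (mock, noise) comparisons, against 31, 17, 893 and 372 with limma, and DESeq2 called 133, 11, 518 and 218. A median of 5 or 6 reads per member in supporting cells limits what a single member can show.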
